A study of Mus musculus with 18 samples.

Results

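The genes described here encode the chains of the IL-4 and IL-13 receptors (Il4ra, Il13ra1, Il2rg), the 4 JAK kinases (Jak1, Jak2, Jak3, Tyk2) and the adaptor Irs2. They were taken as a named set of 8 genes. Their loci were defined as the gene body plus 50000 bp to each side of the most upstream start site, in GENCODE M21 on mm10. The loci held 130 of the 82391 reference peaks (0.158%), 133 of the 84660 summits and 83 of the 59617 extended regions of a catalog of open chromatin, and no peak belonged to more than 1 of them. Chromatin accessibility had been measured by ATAC-seq, where a transposase cuts accessible DNA and tags it for sequencing, in wild type bone marrow-derived macrophages (BMDMs). According to the study's methods the marrow came from male C57/BL6 mice. All 18 libraries, 2 for each of 9 groups, came from cells kept in DMSO for 1 h beforehand. One group was left untreated, 4 groups received LPS at 10 ng/mL for 30 min, 1 h, 2 h or 4 h, and 4 groups received IL-4 at 10 ng/mL for the same times.

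The lists analysed here merge all libraries and carry no column for a library. Responses to the stimuli, their timing and the replicate error were for this reason not analysed here. The depth of each library is unknown, and no test was made. Each value below is a description of 1 catalog. A reference peak has a position, and each summit in it has a score whose scale is not stated in the sources used here; the score of a peak is that of its best summit. Wilson 95% intervals given with shares cover counting error only, and neighbouring peaks are not independent draws.

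IL-4 binds the chain encoded by Il4ra, which then pairs either with the common gamma chain (Il2rg) or with the IL-13-binding chain (Il13ra1). These receptors have no enzyme of their own and carry JAK kinases on their inner ends, which phosphorylate the receptor and with it the transcription factor STAT6 and the adaptor IRS2. In macrophages this route is known for the alternative activation program, and the same kinases also serve interferon and many other cytokine receptors. The labelled cell type was checked on marker genes. All 10 macrophage markers had a start site peak, that is a reference peak reaching to within 1000 bp of an annotated start, compared with 1 of 5 T cell, 2 of 4 B cell, 1 of 2 NK cell, 1 of 4 neutrophil, 0 of 2 mast cell and 2 of 5 fibroblast and epithelial markers, where the share over all protein-coding genes was 56.5%. The B and NK cell counts lie near that share.

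The sequences at the best start site summit of each gene that had one are shown first, because they are the best scored open sites within 1000 bp of the starts of these genes. They are centred on the summit and need not contain the start itself. The Jak2 summit lies 454 bp upstream of the most upstream start and that of Irs2 521 bp. Each line gives 60 bases to either side of the summit on the plus strand of GRCm38.p6, whose primary chromosomes share the coordinates of mm10. Capitals mark matches to any of the 10 consensus sequences searched below, and a line without capitals has none of them in this window.
Il4ra start site, chr7:125552146-125552266: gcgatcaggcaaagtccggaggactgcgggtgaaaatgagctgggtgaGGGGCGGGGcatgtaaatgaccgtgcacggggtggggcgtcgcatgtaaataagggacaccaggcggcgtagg
Il2rg start site, chrX:101268181-101268301: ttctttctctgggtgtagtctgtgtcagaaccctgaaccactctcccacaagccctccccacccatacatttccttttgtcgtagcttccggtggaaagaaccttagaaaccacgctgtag
Jak1 start site, chr4:101265261-101265381: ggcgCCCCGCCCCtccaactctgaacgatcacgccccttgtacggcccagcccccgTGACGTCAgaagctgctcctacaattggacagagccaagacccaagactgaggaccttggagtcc
Jak2 start site, chr19:29251314-29251434: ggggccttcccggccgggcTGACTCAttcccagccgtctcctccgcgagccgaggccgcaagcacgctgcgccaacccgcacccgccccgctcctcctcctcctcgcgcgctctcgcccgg
Jak3 start site, chr8:71676559-71676679: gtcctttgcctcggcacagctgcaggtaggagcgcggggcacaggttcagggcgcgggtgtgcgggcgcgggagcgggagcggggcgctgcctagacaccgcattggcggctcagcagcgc
Tyk2 start site, chr9:21131288-21131408: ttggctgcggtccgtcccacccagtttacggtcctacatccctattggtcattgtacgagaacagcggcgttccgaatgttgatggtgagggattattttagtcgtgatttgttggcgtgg
Irs2 start site, chr8:11008919-11009039: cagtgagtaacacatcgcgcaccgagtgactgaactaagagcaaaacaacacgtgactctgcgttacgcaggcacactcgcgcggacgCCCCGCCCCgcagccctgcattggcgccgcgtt
These 7 windows differed in kind. Jak1 carried the SP/KLF sequence and the CRE sequence TGACGTCA, Il4ra and Irs2 carried the SP/KLF sequence, Jak2 carried an AP-1 sequence, and Il2rg, Jak3 and Tyk2 carried no match. Within 100 bp of the same summits, the NF-kB consensus also matched at Il4ra, Jak2 and Jak3, and still none matched at Il2rg and Tyk2.

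The best scored summits away from start sites, and the Il4ra summit with the STAT6 spacing, are shown in the same way. The first 3 lie in a member gene or nearest to it and over 1000 bp from every annotated start site. The last line spans 100 bases to either side, since its match lies outside the shorter window.
Il4ra intron summit, chr7:125555590-125555710: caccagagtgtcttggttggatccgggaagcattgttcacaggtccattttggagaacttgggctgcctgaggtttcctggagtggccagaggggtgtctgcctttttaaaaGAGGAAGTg
Jak2 upstream summit, chr19:29241637-29241757: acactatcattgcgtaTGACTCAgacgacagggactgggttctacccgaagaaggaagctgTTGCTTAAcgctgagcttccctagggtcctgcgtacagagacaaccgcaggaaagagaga
Il13ra1 upstream summit, chrX:36083066-36083186: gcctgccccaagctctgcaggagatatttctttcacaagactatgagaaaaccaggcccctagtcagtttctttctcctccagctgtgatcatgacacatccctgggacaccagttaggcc
Il4ra intron summit with the STAT6 spacing, chr7:125574001-125574201: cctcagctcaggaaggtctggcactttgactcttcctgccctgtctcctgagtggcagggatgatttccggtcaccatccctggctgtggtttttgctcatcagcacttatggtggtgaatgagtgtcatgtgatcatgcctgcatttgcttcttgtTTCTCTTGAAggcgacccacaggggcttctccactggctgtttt
The Il4ra intron summit carried a PU.1/ETS sequence at its right edge, and the Jak2 upstream summit carried an AP-1 and a C/EBP sequence. The Il13ra1 upstream summit had no match, and the STAT6 spacing in the second Il4ra intron summit read TTCTCTTGAA.

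A start site peak was found for 7 of the 8 genes, and Il13ra1 had none. Over all 21938 protein-coding genes the share with such a peak was 56.5%. On chromosome X, which carries Il13ra1 and Il2rg, it was 36.1% (342 of 948 genes). The score of the best start site peak was 2140 for Tyk2, which serves interferon receptors and the IL-13 receptor complex, 1890 for Jak1, the kinase bound to IL-4Rα, 1747 for Jak2, 1683 for Il4ra, 1632 for Irs2, 923 for Il2rg and 856 for Jak3, the kinase bound to the common gamma chain. Since no spread over libraries is known, neighbours in this order cannot be told apart. Among the 12402 protein-coding genes with a start site peak, whose median score was 1456, Tyk2 scored higher than 94.6%, Jak1 than 80.8%, Jak2 than 70.5%, Il4ra than 65.6% and Irs2 than 62%. Il2rg scored higher than 17.5% of these genes and Jak3 higher than 14.7%. The common gamma chain and its kinase thus had the lowest start site scores of the set, and the other 5 genes scored above the median. Il2rg lies on chromosome X, where the median start site score was 1260 over 342 genes. Male cells hold a single copy of this chromosome, and its part in the scores was not tested.

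The loci held between 8 and 25 reference peaks, compared with a median of 6 (quartiles 1 and 12) over all protein-coding genes and 10 over those with a start site peak. Il4ra had 25 peaks, Tyk2 23, Jak3 18, Irs2 17, Jak1 and Jak2 15 each, Il13ra1 9 and Il2rg 8. Counting only peaks nearest to the gene itself among protein-coding genes, the order changed to Irs2 with 17, Jak1 15, Jak2 14, Il4ra 11, Tyk2 10, Il13ra1 9, Il2rg 2 and Jak3 1. Per 100 kb of locus the values were 25 for Il4ra, 23 for Tyk2, 18 for Jak3, 17 for Irs2, 13.5 for Jak2, 9.21 for Jak1, 8.25 for Il13ra1 and 8 for Il2rg, and the median of all protein-coding genes was 5.34. Il4ra had more peaks than 96.6% of the protein-coding genes and Tyk2 more than 95.2%. The 2 genes with the fewest peaks both lie on chromosome X, where the median locus held 1 peak.

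**Figure D1:**
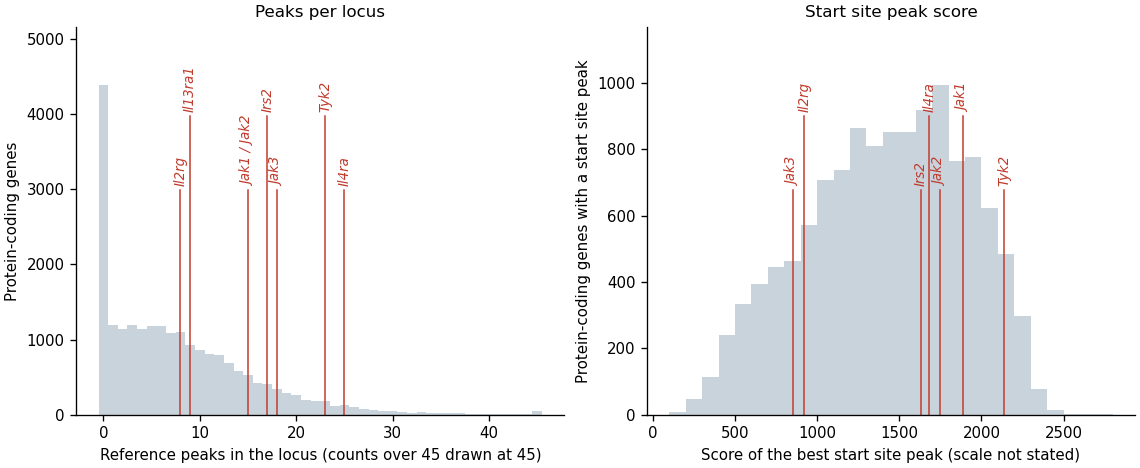
Left, histogram of the number of reference peaks per locus (x axis) over 21938 protein-coding genes (y axis). Right, histogram of the score of the best start site peak (x axis, scale not stated) over the 12402 genes that have one. Red lines mark the 8 genes on the left and the 7 with a start site peak on the right, where Jak3 at 856 and Il2rg at 923 stand to the left of the bulk and Tyk2 at 2140 stands to the right.

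Of the 130 locus peaks, 98 had their best summit over 1000 bp from every annotated start site (75.4%, Wilson 95% interval 67.3 to 82), compared with 71.6% of all reference peaks. The median score was 834 in the loci and 737 over all reference peaks. For peaks away from start sites it was 780 in the loci and 675 over the catalog, and for peaks near start sites it was 934 and 979. A score at or above the catalog median was found in 80 of the 130 peaks (61.5%, interval 53 to 69.5), where 50% is given by construction over all peaks. By position, 50 best summits lay in introns of protein-coding genes, 46 between genes, 15 in introns and 2 in exons of noncoding genes, 15 in untranslated or noncoding exons and 2 in coding exons. The 76 bases centred on each of the 130 best summits occurred 1 time in the genome in 130 cases.

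**Figure D2:**
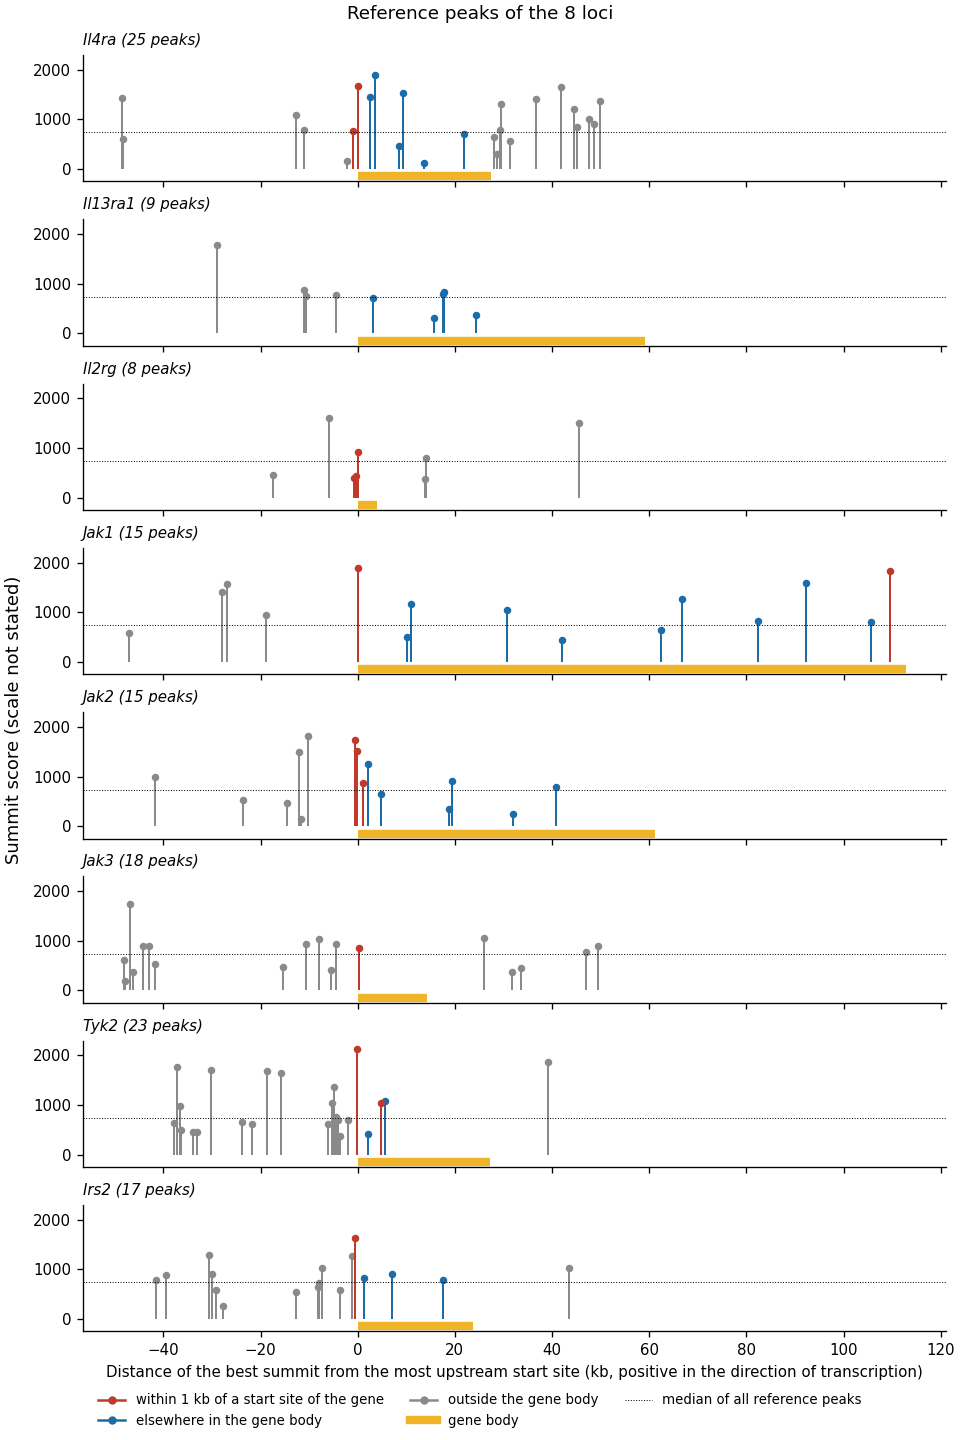
Score of each reference peak (y axis, scale not stated) against the distance of its best summit from the most upstream start site (x axis, kb), with 1 panel for each of the 8 genes. Red points lie within 1 kb of a start site of the gene, blue points elsewhere in its body (yellow bar) and grey points outside it, and the dotted line is the median of all reference peaks, 737. Il13ra1 has no red point, and the Jak1 panel has 1 at each end of the gene.

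Il4ra, the ligand-binding chain that both receptor types share, lies on the plus strand at chr7:125552120-125579474. Its start site peak had its summit 86 bp downstream of the most upstream start, with a score of 1683. A second peak lay 866 bp upstream and scored 759. Its introns held 6 peaks. The best of them, 3530 bp into the gene, scored 1903 and so exceeded the start site itself, and those at 2494 bp and 9377 bp scored 1456 and 1531. The intron peak at 21981 bp, whose sequence is given above, scored 716. Weak peaks at 13701 bp in an intron and 2258 bp upstream, scored 121 and 161. Beyond the 3' end, 12 peaks between 28007 bp and 49834 bp from the start were nearer to the start of Il21r, the receptor chain for IL-21, than to that of Il4ra, and their scores ran from 298 to 1657. In all 11 of the 25 peaks were nearest to Il4ra.

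Il13ra1, the chain that pairs with IL-4Rα in the receptor for both IL-4 and IL-13, lies on the plus strand at chrX:36112110-36171259. No reference peak or extended region covered its annotated start. The nearest summit lay in an intron 3249 bp downstream of the start and scored 706, and the nearest upstream summit lay at 4424 bp with a score of 769. The other 7 peaks lay between 28984 bp upstream and 24428 bp downstream. The best of the locus was the intergenic peak 28984 bp upstream, with a score of 1786, and the remaining 6 scored between 315 and 878. All 9 peaks were nearest to Il13ra1 among protein-coding genes, and no other coding gene started in the locus. Its promoter in RefSeq (GRCm38.p6, plus strand, 250 bases before to 50 after the start) is shown because it lacks a peak, with CG dinucleotides in capitals.
Il13ra1 promoter, chrX:36111858-36112157: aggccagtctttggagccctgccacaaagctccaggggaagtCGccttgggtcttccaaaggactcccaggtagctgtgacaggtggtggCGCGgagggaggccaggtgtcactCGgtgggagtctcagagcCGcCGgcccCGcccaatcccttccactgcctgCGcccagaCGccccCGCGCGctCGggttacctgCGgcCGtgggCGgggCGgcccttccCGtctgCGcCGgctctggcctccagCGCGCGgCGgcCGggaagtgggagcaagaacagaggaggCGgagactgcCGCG
This stretch held 28 CG dinucleotides, more than 86% of the 27025 RefSeq promoters, whose median was 7. The same count was 44 at Jak2, 41 at Irs2, 29 at Jak1, 25 at Il4ra, 23 at Tyk2, 9 at Jak3 and 3 at Il2rg, so genes with a start site peak lay on both sides of Il13ra1. The Il13ra1 promoter held no match to the consensus sequences searched, and neither did those of Il2rg, Jak2, Jak3 and Tyk2.

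The missing Il13ra1 peak was set beside technical values chosen after the peak was found missing. All 25 stretches of 76 bases, laid in overlapping steps across 500 bp to either side of the start, occurred only 1 time in the genome. The 201 bases around the start were 77.1% G and C, compared with 81.6% at Jak2, 79.6% at Irs2, 68.7% at Jak1, 62.7% at Tyk2, 58.7% at Il4ra, 57.2% at Jak3 and 49.3% at Il2rg. By the stricter measure of a peak over the most upstream start itself, 5 of the 8 genes had one, and Irs2 and Jak3, whose start site peaks lie beside that start, had none along with Il13ra1. Over all protein-coding genes a peak covered the most upstream start in 72.1% of the 2229 genes with 70 to 75% G and C, in 66.4% of the 1335 genes with 75 to 80% and in 49% of the 641 genes at 80% or more. With a peak within 1000 bp the shares were 81.4%, 79.6% and 74.1%. On chromosome X, 14 of the 21 genes with 75 to 80% had a peak within 1000 bp (66.7%, interval 45.4 to 82.8). In 11 of these 21 genes a peak covered the most upstream start (52.4%, interval 32.4 to 71.7). Over all protein-coding genes below 60% G and C, the shares within 1000 bp were lower. They were 52.2% for 50 to 60%, 26.4% for 40 to 50% and 11.1% under 40%. Names of the summits carry numbers that rise along each chromosome and skip 67.9% of the values up to the highest, and 2 numbers are skipped between the summits that flank the Il13ra1 start, 7673 bp apart. By the study's methods the reference set kept only calls that passed a strict q-value and overlapped between replicates. Whether the skipped numbers are calls lost at this step is not stated. The part of this filter and of base composition in the missing peak was not tested.

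**Figure D3:**
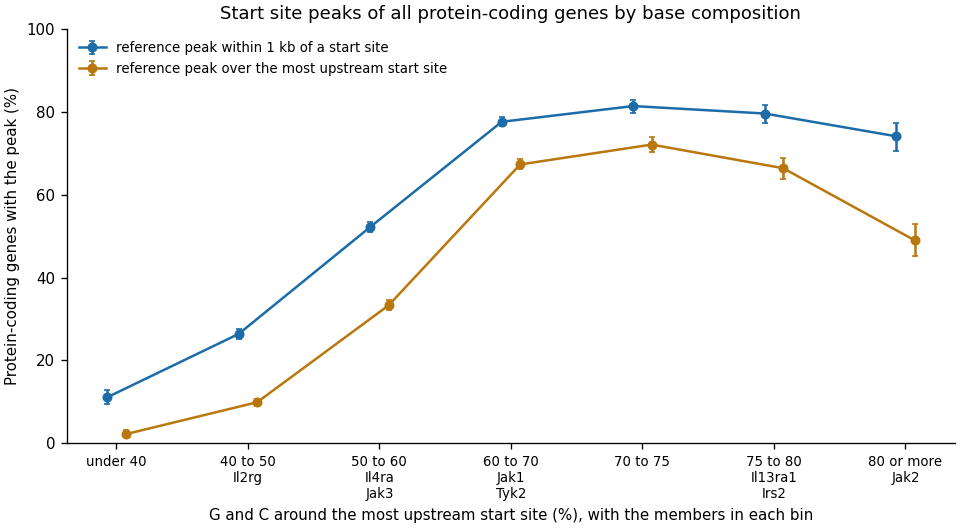
Share of protein-coding genes (y axis, %) with a reference peak within 1 kb of a start site (blue) or over the most upstream start site (orange), in bins of G and C content around that start (x axis, %). Bars are Wilson 95% intervals, and the genes described are named under their bin. In the bin of Il13ra1 and Irs2 the shares are 79.6% and 66.4%.

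Il2rg, the gamma chain shared by the receptors for IL-2, IL-4, IL-7, IL-9, IL-15 and IL-21, lies on the minus strand at chrX:101264378-101268255. The gene is 3.88 kb long and its body held 1 peak, with its summit 14 bp from the start and a score of 923. Peaks at 327 bp and 663 bp upstream scored 439 and 393, and the second was nearer to the start of Gm20489. The best scored peaks of the locus were those at the starts of Med12, a Mediator subunit (1606, 70 bp from its start), and Snx12, a sorting nexin (1505, 62 bp). Of the 8 peaks, 2 were nearest to Il2rg, and 6 other coding genes started in the locus. Every peak of this locus lay within 1000 bp of some annotated start site.

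Jak1, bound to IL-4Rα and to many other receptor chains, lies on the minus strand at chr4:101152367-101265282. All 15 of its peaks were nearest to Jak1, 11 of them in or reaching into the 113 kb gene body, and no other coding gene started in the locus. The start site peak scored 1890 with its summit 39 bp upstream. Near the other end of the gene, 109548 bp from the most upstream start, an intron peak scored 1838 and lay 615 bp from an internal annotated start site. Between them 9 intron peaks scored from 439 to 1581, the best at 92345 bp. Upstream, 4 peaks between 18863 bp and 46990 bp scored from 573 to 1568. The median score of the locus, 1048, was the highest of the 8 loci.

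Jak2, the kinase of the receptors for interferon-gamma, GM-CSF and others, lies on the plus strand at chr19:29251828-29313080. Peaks at 454 bp and 126 bp upstream of the start scored 1747 and 1518. Peaks 1185 bp and 2130 bp into the gene scored 867 and 1248, and these 4 peaks formed 1 extended region of 4316 bp. The best peak of the locus lay 10131 bp upstream with a score of 1812, and a neighbour at 12116 bp scored 1505. A weak peak at 11715 bp scored 140. The other 8 peaks scored between 242 and 990, and 14 of 15 were nearest to Jak2.

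Jak3 lies on the plus strand at chr8:71676296-71690575. Its body held 1 peak, which was also the only 1 of the 18 locus peaks nearest to Jak3. The summit lay 323 bp downstream of the most upstream start, 67 bp from another annotated start, and scored 856. Of the other peaks, 12 lay upstream, mostly in Unc13a, which encodes a protein of synaptic vesicle priming. The best peak of the locus, 46890 bp upstream, lay in an untranslated or noncoding exon of Unc13a and scored 1734. The next, at 25932 bp downstream and 439 bp from the start of B3gnt3, scored 1059, and a peak 203 bp from a start of Unc13a scored 1036. In all 17 of the 18 peaks were nearest to another coding gene, and 4 other coding genes started in the locus.

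Tyk2 lies on the minus strand at chr9:21104068-21131243. The start site peak, with its summit 105 bp upstream, scored 2140 and was the best of all 130 locus peaks. From 2095 bp to 6182 bp upstream followed 7 peaks with scores from 367 to 1357, the best at 4861 bp. They formed 1 extended region of 5730 bp, with more peaks than any other of the 8 loci, and all lay in an untranslated or noncoding exon annotated to Cdc37, a chaperone partner of kinases. Extended regions with 4 or more peaks made up 2.84% of the catalog and 7 of the 82 that held a locus peak (8.54%). In the gene body, peaks at 2203 bp, 4844 bp and 5670 bp scored 411, 1048 and 1082. Farther out, peaks at the start of Raver1 and in an intron of Pde4a, a cAMP phosphodiesterase, scored 1877 and 1773. Of the 23 peaks, 10 were nearest to Tyk2, and 4 other coding genes started in the locus.

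Irs2, the adaptor that links the activated receptor to PI3K, lies on the minus strand at chr8:10984681-11008458. The start site peak scored 1632 with its summit 521 bp upstream of the start in GENCODE. The RefSeq start lies 471 bp upstream of that in GENCODE, inside the peak and 50 bp from the summit. In the gene, peaks at 1291 bp, 7093 bp and 17479 bp scored 834, 911 and 780. Upstream, 12 further peaks reached from 1175 bp to 41591 bp and lay in the noncoding gene 9530052E02Rik, which runs through the region. The first of these scored 1260 and the others from 258 to 1296. All 17 peaks were nearest to Irs2 among protein-coding genes.

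The best summits were searched on both strands, within 100 bp, for 10 consensus sequences. They were the STAT6 spacing TTCNNNNGAA, the spacing of other STATs TTCNNNGAA, PU.1/ETS GAGGAAGT, AP-1 TGACTCA or TGAGTCA, IRF GAAANNGAAA, C/EBP TTGCNNAA, CTCF CCNNNAGGNGGC, SP/KLF GGGGCGGGG, CRE TGACGTCA and the NF-kB consensus. Matches of different sequences may overlap, since the STAT spacings share their ends. The STAT6 spacing occurred in 8 of the 130 locus peaks (6.15%, interval 3.15 to 11.7) and in 6.87% of all reference peaks. A summit with it scored 716 in Il4ra, at 21981 bp, and 834 in Jak1, at 82351 bp. Upstream of Jak2 they scored 1505 and 140, at 12116 bp and 11715 bp. Upstream of Irs2 they scored 1260, 583 and 780, at 1175 bp, 3620 bp and 41591 bp, and in the Jak3 locus 1 in Unc13a scored 623. No peak of the Il13ra1, Il2rg or Tyk2 loci held it. A match says that the letters are there and nothing about binding.

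Of the other sequences, the NF-kB consensus stood highest above the catalog, in 17 locus peaks (13.1%, interval 8.33 to 19.9) compared with 5.57%. Of these peaks 5 were in the Tyk2 locus and 3 each in those of Il13ra1 and Irs2. In the Tyk2 locus the peaks 2095 bp and 4861 bp upstream were nearest to Tyk2, and the others to Cdc37 or Pde4a. The spacing of other STATs occurred in 14 locus peaks (10.8%, interval 6.52 to 17.3, catalog 6.4%), 5 of them in the Il4ra locus. There the peaks at 2494 bp and 9377 bp lay in Il4ra introns, and the others were nearest to Il21r. SP/KLF occurred in 10 locus peaks (7.69%, interval 4.23 to 13.6, catalog 4.31%), 5 of them in the Jak3 locus. None of these in the Jak3 locus was nearest to Jak3. The shares of the remaining sequences were 16.2% and 16.2% for AP-1, 8.46% and 9.22% for PU.1/ETS, 9.23% and 11.4% for C/EBP, 3.08% and 3.66% for IRF, 3.08% and 4.45% for CTCF, and 0.769% and 0.927% for CRE, in the loci and the catalog. With 10 sequences compared and clustered peaks, these shares are descriptions without a test. By locus, AP-1 was found in 6 of 15 peaks at Jak2, 4 of 15 at Jak1, 3 of 9 at Il13ra1, 4 of 23 at Tyk2 and 4 of 25 at Il4ra, and in 0 of 17 at Irs2, 0 of 18 at Jak3 and 0 of 8 at Il2rg. The Jak1 locus held 5 and the Il4ra locus 4 of the 11 peaks with the PU.1/ETS sequence. This sequence is known for PU.1, a lineage factor of macrophages. Of these peaks in the Il4ra locus, only the intron peak at 3530 bp was nearest to Il4ra, and the others were nearest to Nsmce1 or Il21r.

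**Figure D4:**
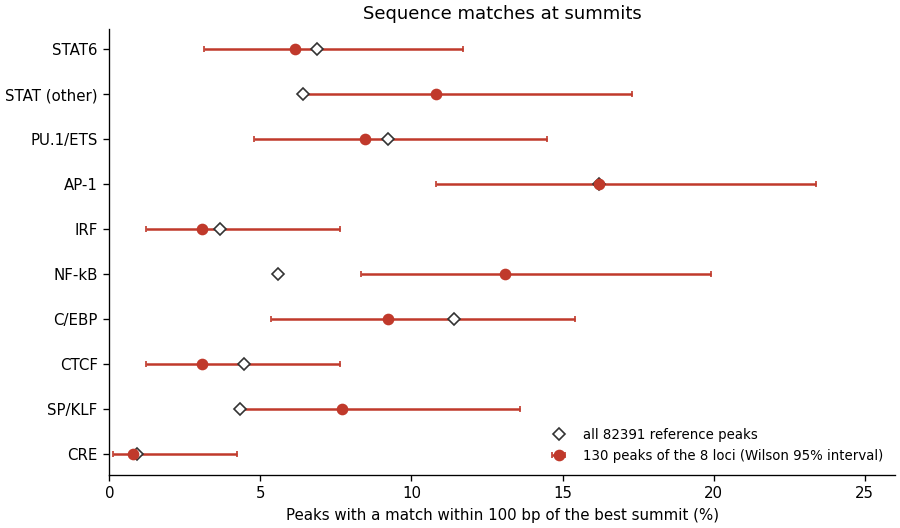
Share of peaks (x axis, %) with a match to each of 10 consensus sequences (y axis) within 100 bp of the best summit. Red points are the 130 locus peaks with Wilson 95% intervals for counting error, and open diamonds are all 82391 reference peaks. The NF-kB share of 13.1% lies above the catalog value of 5.57%, and that of STAT6, 6.15%, lies beside its catalog value of 6.87%.

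The wider pathway was read from a list of 38 genes, of which 32 had a start site peak, beside 56.5% of all protein-coding genes. The ligand genes Il4 and Il13 had none, with 3 locus peaks each, and neither did Il13ra2, the decoy receptor, which had 0 peaks in its locus. All 5 STAT genes of the list had one, and so did all 6 inhibitors and phosphatases, all 6 adaptors and PI3K subunits and all 12 other receptors that use JAK kinases. Among the partner chains of Il2rg other than Il4ra, whose start site peak scored 1683, 3 of 6 had a start site peak. This share was near that of all genes, and Il2ra, Il2rb and Il9r had none. The 3 that had one were Il21r at 1468, Il7r at 945 and Il15ra at 737. Start site scores in the list ran from 544 for Il12rb1 to 2153 for Stat3, and locus counts reached 38 at Socs3, an inhibitor of JAK signalling. Beside the 8 genes, whose median locus held 16 peaks, the 7 STAT genes had a median of 13 and the SOCS family with Cish, 8 genes in all, 15, with a start site peak at 6 of 7 (all but Stat4) and 8 of 8.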

How the data were processed

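ATAC-seq reads of 76 bases were, per the study's methods, trimmed, aligned to mm10 and called as peaks by the authors with duplicates kept. The peak calling options listed there name no shift towards the Tn5 cut. The reference set kept calls that passed a strict q-value and overlapped between replicates. The submitters' processing notes name Trimmomatic 0.39, SAMtools 1.9 and MACS2 2.2.6. The 3 deposited lists are pooled and hold summits with a score, reference peaks and extended regions. The score is a deposited value of unstated scale that was used only within its list. No column belonged to a single library and 0 to other samples, so depth and precision per library are unknown. Overlap required 1 bp. Start site peaks overlapped 1000 bp to either side of an annotated start. Genes and sequence came from GENCODE M21 and GRCm38.p6, promoters from RefSeq. Counts, medians, motif matches and Wilson intervals were computed with Python 3.11.15, pandas 2.3.3, pysam 0.24.0 and statsmodels 0.14.6 and tested on simulated data. All 8 genes are named, list genes where they lack a start site peak or stand at an end, neighbours for the 3 best summits of a locus, and the other Il2rg partners as chosen after their values were seen. Members and lists were chosen with earlier results of these data known. Window sizes, start site definitions, peak lists and motif windows were varied.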

Additional observations from a re-analysis of the deposited data

How the results depend on the processing

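No paired analysis was possible because the lists carry no column for a library. A start site peak was found for 7 of the 8 genes with windows of 500 bp and 2500 bp, the most upstream start alone, extended regions over the start, peaks at or above the median score, and RefSeq starts. A reference peak over the start itself was found for 5 with the most upstream start and for 6 with the RefSeq start. The last 3 of these settings were chosen after seeing the data. The 130 reference peaks of the loci became 80 with windows of 20000 bp, 206 with 100000 bp, 40 in gene bodies alone, 83 as extended regions and 80 at or above the median summit score. The share away from start sites, 75.4%, became 60% with a limit of 2500 bp. The share nearest to the gene itself, 60.8%, became 43.8% when noncoding genes were counted, 82.5% with 20000 bp, 45.6% with 100000 bp and 97.5% in gene bodies. Peaks with the STAT6 spacing numbered 8, and 4 within 50 bp of the summit, 15 within 200 bp and 4 at the best summit of each extended region. The median score stayed between 823 and 845.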
